A study of Mus musculus with 16 samples.

Results

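The comparison described here is that between fasted AgRP knockout (AgRP-/-) and fasted AgRP heterozygous (AgRP+/-) mice, made in RNA of the hypothalamus. It rests on 8 of the 16 arrays of the study, 4 for each genotype, chosen by the genotype and feeding state in their titles. All mice were males of a mixed strain background, and the animals compared had been without food for 30 h, while the other 8 arrays, 4 per genotype, hold RNA of mice fed ad libitum. The reference group here is the heterozygote with 1 intact copy of the gene, and the labels give neither the age of the mice nor the extent of the deletion. Nothing in them states that the 4 arrays of a group come from different animals, so p-values here reflect variation among the arrays, part or all of which may be technical. The comparison asks how the fasted hypothalamus differs when the peptide is missing.

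Agouti-related peptide is made by neurons of the arcuate nucleus that also release neuropeptide Y and GABA, and these neurons become active when energy stores are low. The peptide acts on melanocortin receptors, where it opposes the peptides cut from proopiomelanocortin, and in this way it promotes feeding and saves energy. Immediate early genes are transcribed within minutes of a strong stimulus without new protein being made, and in brain tissue their mRNA level is commonly read as a trace of recent neuronal activity. Many of them code for transcription factors, such as Fos, Fosb and Junb, which pair into AP-1, and the zinc-finger factors Egr1 to Egr4.

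A probe was kept when its log2 intensity lay above the median of the whole table, 5.12, in at least 4 of the 16 arrays, and this held for 13662 of 25697 probes (53.2%), which named 9530 genes. The deposited values ran from 4.21 to 14.7, and values near the lower quartile of 4.49 cannot be separated from background. The number of arrays limits the precision. Pairs of the 8 fasted arrays correlated between 0.981 and 0.993, and no 2 columns of the table were identical. Transcripts that mark the hypothalamus were abundant in all 8 arrays: Pmch, the gene of melanin-concentrating hormone, read at least 13.65 in each, and Hcrt, the gene of the orexins, read 11.91 to 12.81. Of 25 hypothalamic marker genes 23 had a probe and 16 were kept. No probe carried the name Agrp (0 probes), and the loss of the targeted transcript could therefore not be checked by its name.

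A small number of probes separated the genotypes after correction for all probes tested, and the single named gene among them was Egr1, an activity-induced transcription factor that was lower in the knockout. Beside it, Fos, Egr4, Fosb, Junb, Arc, Crem and Egr2 read lower in every fasted AgRP-/- array than in any fasted AgRP+/- array. These are also immediate early genes, but none of them passed the correction alone. Fosb and Egr2 were kept mainly through AgRP+/- arrays. Over all genes, 2.65% read lower in this way. No gene was called higher. No gene of the AgRP neuron or of the melanocortin pathway was called either, where a single gene was called in all.

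In numbers, limma called 2 of 13662 probes at an adjusted p under 0.05 (0.0146%), both lower in AgRP-/-, which is 1 of 9530 named genes (0.0105%). At an unadjusted p under 0.05 there were 939 probes (6.87%). In simulated data of this design 67, 67 and 66 probes were shifted at once, by 0.5, 1 and 2 on the log2 scale. The model recovered 61.2%, 94.0% and 100% of them, with 9 false calls. The correction is stricter where few probes differ, so with 2 calls here these shares may overstate recovery. Differences of about 0.5 are often missed, and larger ones can be. A simpler description is whether the 4 arrays of each genotype overlap. They did not for 142 genes that read higher in AgRP-/- (1.49%) and for 253 that read lower (2.65%), and the median difference over all 9530 genes was -0.012. These shares are the background against which the counts of each gene group below are given.

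**Figure D1:**
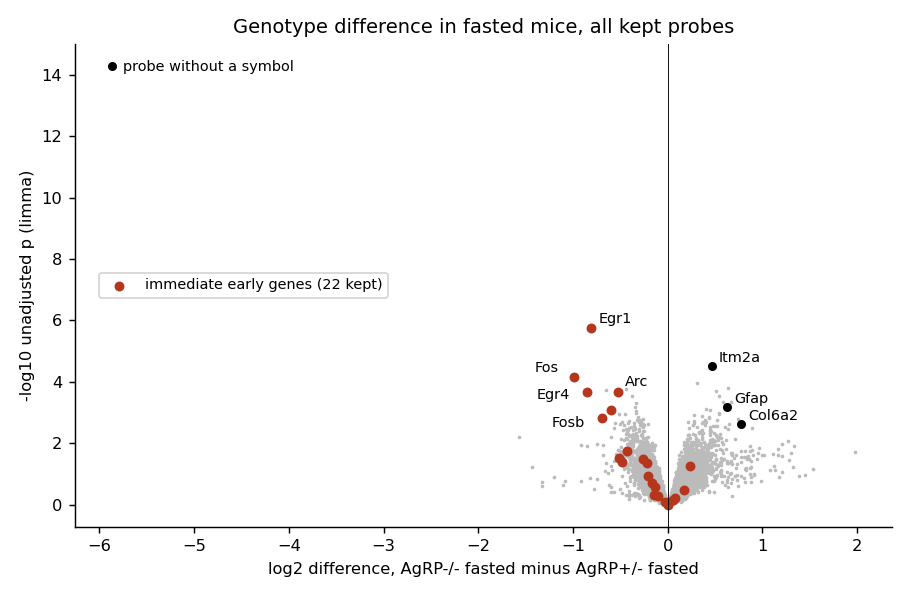
Each grey point is 1 of the 13662 kept probes, with the log2 difference between fasted AgRP-/- and fasted AgRP+/- arrays on the x axis and -log10 of the unadjusted limma p on the y axis. Red points are the 22 kept immediate early genes, of which 17 lie to the left of 0 and Egr1 stands highest. The black point at the far left is the probe without a symbol, at -5.86.

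Of 30 immediate early genes on the list, 29 had a probe and 22 were kept. limma called 1 of the 22 lower and 0 higher. In 8 of 22 the fasted AgRP-/- arrays all lay below the fasted AgRP+/- arrays and in 0 they all lay above, against 2.65% lower and 1.49% higher over all genes. Of these 8, Fosb and Egr2 passed the filter mainly in AgRP+/- mice, in 6 and 5 of their arrays against 1 AgRP-/- array each, so their difference follows in part from the filter. Without them 6 of 20 were apart on the lower side. A total of 17 of the 22 lay below 0 and 5 above, with a median of -0.21 against -0.012 over all genes, and the median was -0.13 when the probes of a gene were averaged and -0.19 without Fosb and Egr2. The genes not kept were Atf3, Btg2, Ccn1, Fosl1, Ier2, Nr4a1 and Nr4a3. In bulk tissue fewer cells of a type and less RNA per cell cannot be told apart, which holds for every level given here.

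Promoter sequences of some of the genes with groups apart are shown because promoters of immediate early genes are known for short elements that respond to calcium, cAMP and growth factor signals. The elements searched on both strands were the core of the cAMP response element, CGTCA, which reads TGACG on the other strand, its full palindrome TGACGTCA, which contains the core, and the CArG box, the site of serum response factor. Sequences are the 250 bases before the transcription start from RefSeq (build GRCm38.p6), written 5′ to 3′ on the strand of the gene, with the core and the CArG box in capitals.
Fos, chr12:85473640-85473889, plus strand: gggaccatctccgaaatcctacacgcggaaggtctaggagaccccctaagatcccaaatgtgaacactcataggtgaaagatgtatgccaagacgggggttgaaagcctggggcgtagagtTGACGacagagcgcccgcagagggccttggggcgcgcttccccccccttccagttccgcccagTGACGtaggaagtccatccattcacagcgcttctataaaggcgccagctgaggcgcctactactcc
Egr4, chr6:85513590-85513839, minus strand: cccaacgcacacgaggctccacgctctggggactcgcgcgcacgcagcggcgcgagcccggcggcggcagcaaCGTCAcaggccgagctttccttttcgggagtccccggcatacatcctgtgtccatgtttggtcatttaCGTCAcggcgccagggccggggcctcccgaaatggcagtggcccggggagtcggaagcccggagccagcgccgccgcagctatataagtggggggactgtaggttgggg
Egr2, chr10:67537619-67537868, plus strand: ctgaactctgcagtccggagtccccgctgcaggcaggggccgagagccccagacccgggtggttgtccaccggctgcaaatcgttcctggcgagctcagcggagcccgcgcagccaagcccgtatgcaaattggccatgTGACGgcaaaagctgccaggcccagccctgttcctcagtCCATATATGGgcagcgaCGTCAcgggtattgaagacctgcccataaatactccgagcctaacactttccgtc
The Fos window holds the core at 2 places, the Egr4 window at 2 places, and the Egr2 window at 2 places with a CArG box between them.

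Of the 22 kept immediate early genes 17 had a promoter entry, and 12 of these held the core in at least 1 entry. Among the 8 genes whose groups did not overlap, 5 had an entry (Fos, Fosb, Junb, Egr2 and Egr4) and all 5 held the core, against 17.8% of 32851 mouse promoters of the same length. A gene with several starts has several chances to hold a motif, and Egr2 is such a gene. The full element was found for 0 of the 5 and 1 of the 17 genes, against 1.55% of promoters, and the CArG box for 1 of the 5 and 1 of the 17, against 1.47%. A match describes the letters in this window and is not a bound site.

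Egr1, a zinc-finger transcription factor induced by neuronal activity and growth factors, read 10.60, 10.56, 10.76 and 10.59 in the 4 fasted AgRP-/- arrays. In the 4 fasted AgRP+/- arrays it read 11.27, 11.18, 11.50 and 11.79. The groups did not overlap, and the AgRP-/- arrays lay close together while the AgRP+/- arrays spread more widely. The means were 10.63 ± 0.089 (SD, n = 4) and 11.43 ± 0.27 (SD, n = 4). Egr1 fell by 0.81 on the log2 scale in AgRP-/- (SE 0.12, limma adjusted p = 0.0121), a 1.75-fold lower level. An exact two-sided permutation test of the 8 arrays gave p = 0.0286, its minimum in this design. Any gene whose groups do not overlap reaches this value. Egr1 was chosen from the same arrays, so the test adds no support to the call. The call was lost without AgRP-/- fasted replicate 1, 2 or 4 (-0.80, -0.79 and -0.80, limma adjusted p = 0.0732, 0.0783 and 0.0680), without the intensity trend of the model (adjusted p = 0.132), and with dopamine neuron or mural and meningeal transcripts, described below, as a covariate (-0.68 and -0.75, adjusted p = 0.0931 and 0.0928).

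Fos, the founding member of the AP-1 family, read 7.11, 7.59, 7.90 and 7.69 in fasted AgRP-/- arrays. It read 8.97, 8.22, 8.47 and 8.58 in fasted AgRP+/- arrays. Every AgRP-/- array lay below every AgRP+/- array, and the first array of each genotype was the most extreme of its group. The difference was -0.99 (SE 0.20), the widest among the kept immediate early genes, and did not pass the correction (limma adjusted p = 0.241). Fosb, a relative of Fos, read 4.57 to 4.68 in AgRP-/- and 5.88, 4.85, 5.43 and 5.09 in AgRP+/- fasted arrays. The AgRP-/- values lay next to the lower quartile of the scale, so the difference of -0.69 (SE 0.19, adjusted p = 0.529) is limited by background. Junb, a partner of Fos in AP-1, read 6.34, 6.65, 6.83 and 6.72 against 7.21, 7.16, 7.23 and 7.32. The difference was -0.60 (SE 0.15, adjusted p = 0.529), and the AgRP+/- arrays were nearly equal. Other AP-1 genes differed little: Jun, the usual partner of Fos, read -0.030 and Jund, a more stable family member, 0.061.

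Egr4, a relative of Egr1, read 6.11, 5.95, 6.62 and 6.30 in fasted AgRP-/- arrays. In fasted AgRP+/- arrays it read 7.03, 6.84, 7.40 and 7.12. The groups were separated by a gap, and the difference was -0.85 (SE 0.19, limma adjusted p = 0.259). Egr2 averaged 4.87 ± 0.11 (SD, n = 4) in AgRP-/- and 5.38 ± 0.21 (SD, n = 4) in AgRP+/-, without overlap, a difference of -0.51 (SE 0.22, adjusted p = 0.690), with the AgRP-/- arrays below the median of the table. Egr3, the remaining member of the family, read 0.0012. It lay above the median of the table in only 2 fasted arrays of each genotype, so its difference is limited by background. Its value therefore does not show whether the family was uniform.

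Arc, which codes for a protein of synapses that regulates glutamate receptor traffic, read 6.34, 6.26, 6.50 and 6.58 in fasted AgRP-/- arrays. It read 6.96, 6.81, 6.90 and 7.11 in fasted AgRP+/- arrays. The groups did not overlap, and the difference was -0.53 (SE 0.12, limma adjusted p = 0.259). Npas4, a transcription factor induced by calcium entry in neurons, read 5.37 to 6.09 against 5.97 to 6.70, with a difference of -0.48 and overlapping groups. Crem, which gives rise to an inducible repressor of cAMP-driven transcription, read 6.09 to 6.41 against 6.41 to 6.84, a difference of -0.43 (SE 0.17, adjusted p = 0.685). Nptx2, a secreted pentraxin that gathers glutamate receptors at synapses, read -0.26, and the phosphatase genes Dusp6 and Dusp1, which switch off MAP kinases, read -0.22 and -0.21. The genes furthest above 0 were Ier3 at 0.24 and Klf4 at 0.17. Klf4 lay above the median of the table in 3 fasted AgRP-/- and 2 fasted AgRP+/- arrays, so its value is limited by background.

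**Figure D2:**
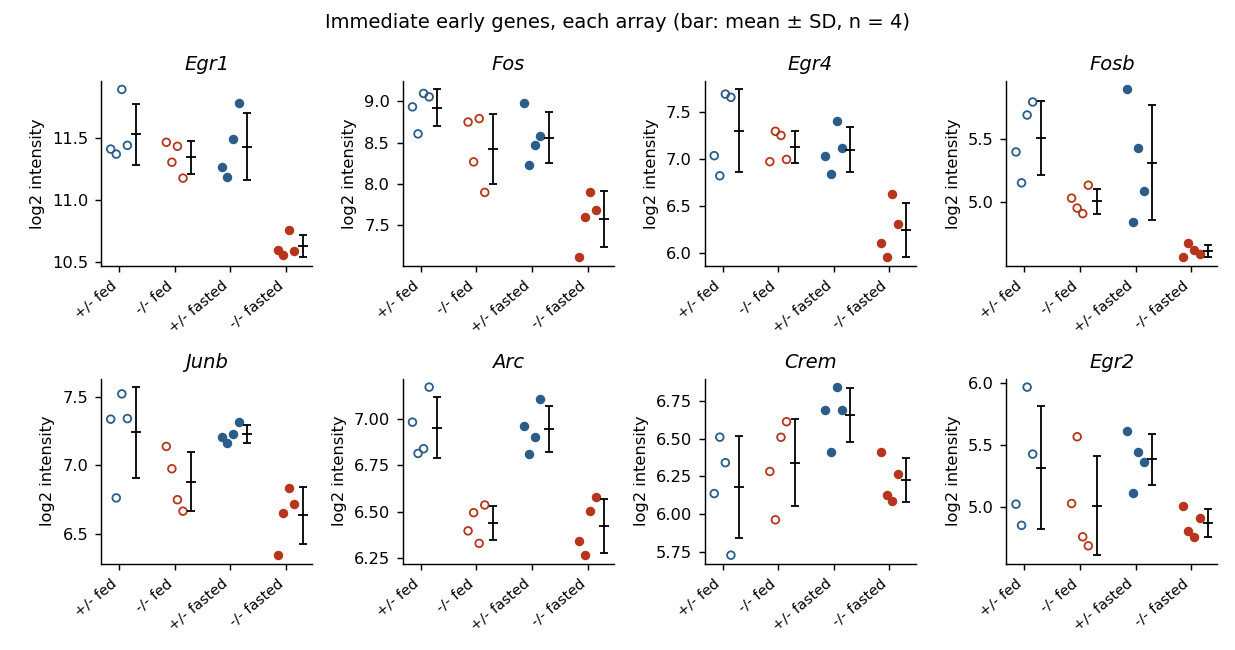
Log2 intensity of the 8 immediate early genes whose fasted groups did not overlap, with 1 point per array, open for fed and filled for fasted mice, blue for AgRP+/- and red for AgRP-/-, and bars for the mean ± SD of 4 arrays; each panel has its own y axis, which does not start at 0. In each panel the filled red points lie below the filled blue points, and in the panels of Arc and Fosb the fed groups are also apart.

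Averaged over the 22 kept immediate early genes, the fasted AgRP-/- arrays lay between 6.96 and 7.05 and the fasted AgRP+/- arrays between 7.22 and 7.40 in log2 intensity. The fed arrays lay between 7.11 and 7.21 in AgRP-/- and between 7.15 and 7.45 in AgRP+/-. The fasted AgRP-/- arrays were thus the lowest of the 16, and the fed genotypes overlapped. Without Fosb and Egr2 the fasted AgRP-/- arrays lay between 7.18 and 7.29, and the lowest array of the other groups was at 7.33.

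The same genotype difference can be read in 8 fed arrays that the fasted comparison does not use, although all 16 arrays share a normalization. In fed mice the median over the 22 immediate early genes was -0.14, with 16 below 0 and 6 above. Groups did not overlap for 3 genes on the lower side, against 1.25% of all genes, and for 0 on the higher side, against 1.05%. limma called 0 of the 22 in fed mice, where 1 of all 13662 probes was called (0.00732%). The 3 genes were Arc, Nptx2 and Fosb, the last of which passed the filter mainly in AgRP+/- mice. Without Fosb and Egr2 the fed median over 20 genes was -0.098, with 14 below 0, 6 above and 2 apart on the lower side. Arc read -0.52 in fed mice, close to its fasted value, and Fosb read -0.50. Fos read -0.50 in fed mice, with AgRP-/- arrays at 7.90 to 8.79 and AgRP+/- arrays at 8.61 to 9.10, which overlapped. Egr1 and Egr4 read -0.18 and -0.17 in fed mice, and Crem read 0.16.

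Whether the genotype difference itself differed between the feeding states was tested by the interaction term. limma called 0 of 13662 probes for it (0%), and 371 had an unadjusted p under 0.05 (2.72%). For Egr1 the interaction was -0.62 (SE 0.17, limma adjusted p = 0.999), for Egr4 -0.68, for Crem -0.59 and for Fos -0.49, while for Arc it was -0.0097. In the same simulated data the interaction recovered 25.4% of probes shifted by 0.5 and 79.1% of those shifted by 1. With 0 calls here these shares may overstate recovery, so terms of this size can be missed. A difference between feeding states was therefore not shown for any of these genes, nor does the p show that the states were alike.

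**Figure D3:**
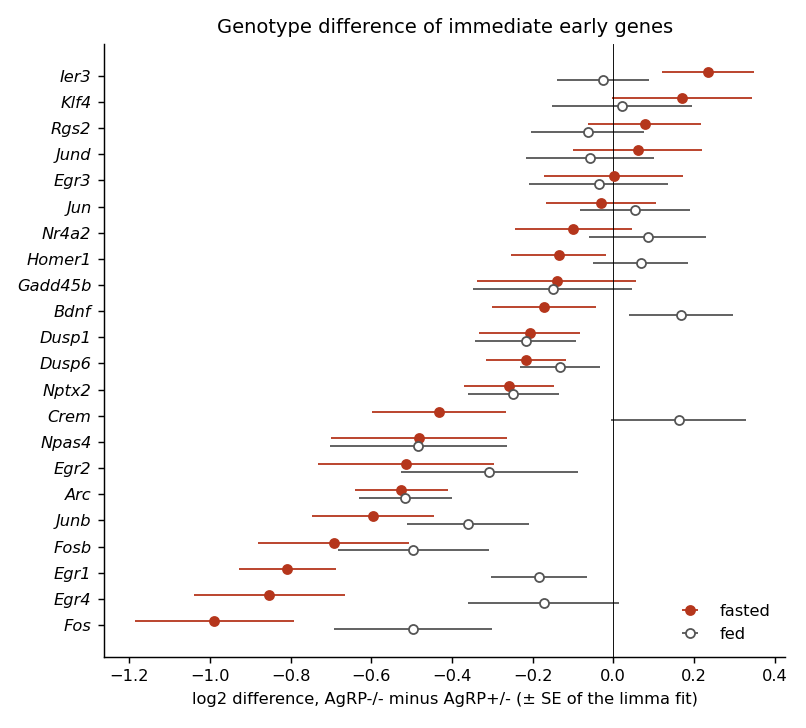
Log2 difference between AgRP-/- and AgRP+/- arrays for each of the 22 kept immediate early genes, in fasted mice (filled red) and in fed mice (open grey), with bars for the SE of the limma fit. Fos, Egr4 and Egr1 lie furthest to the left in fasted mice at -0.99, -0.85 and -0.81, and Arc has nearly the same value in both states.

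Genes expressed by AgRP neurons themselves were described in the same way. Of 20 genes on that list 19 had a probe and 12 were kept, and limma called 0 of 12 in either direction, where 0.0105% of all genes were called, so that a count of 0 says little about a list of this size. For 0 of the 12 did the genotypes fail to overlap, against 2.65% lower and 1.49% higher over all genes. The median was -0.042, and the values ran from -0.25 for Vgf, a secreted granin-like protein, to 0.11 for Kcnj8, a subunit of ATP-sensitive potassium channels.

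Npy, the peptide made by the same cells, read 10.23, 10.84, 11.09 and 10.50 in fasted AgRP-/- arrays. In fasted AgRP+/- arrays it read 11.05, 10.46, 10.39 and 10.43. The groups overlapped throughout, with the first AgRP+/- array above the others of its group. The difference was 0.082 (SE 0.20, limma adjusted p = 0.947), and it read -0.059 to 0.24 when single arrays were left out. In fed mice the same difference was 0.10. Ghsr, the ghrelin receptor, read 5.72 to 6.21 in AgRP-/- and 5.88 to 6.35 in AgRP+/-, a difference of -0.12. Npy2r, the receptor through which neuropeptide Y restrains its own neurons, read -0.13. The GABA genes Gad1, which makes the transmitter, and Slc32a1, which loads it into vesicles, read -0.015 and -0.037. The remaining kept genes, Gpr83, Corin, Isl1, Sst and Calcr, lay between -0.12 and 0.043.

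The next list holds the genes that carry the melanocortin signal. Of its 18 genes 14 had a probe and 11 were kept, with 0 called, against the same 0.0105%, and a median of 0.030. Pomc, the precursor of the melanocortins, read 8.12, 8.04, 8.28 and 7.98 in fasted AgRP-/- arrays. It read 7.96, 8.02, 8.52 and 7.56 in fasted AgRP+/- arrays. The AgRP-/- values fell within the range of the AgRP+/- values, and the difference was 0.091 (SE 0.20, limma adjusted p = 0.944). Cartpt, an anorexigenic peptide of the same neurons, read 11.82 to 12.36 against 11.82 to 12.33, a difference of -0.10 (SE 0.11).

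The receptors on which agouti-related peptide acts are Mc3r and Mc4r. Mc3r averaged 6.42 ± 0.18 (SD, n = 4) in AgRP-/- and 6.51 ± 0.16 (SD, n = 4) in AgRP+/- fasted arrays, a difference of -0.092 (SE 0.13). Mc4r read 5.87 to 6.13 against 5.79 to 6.18, a difference of 0.027 (SE 0.14), at a level not far above the median of the table. Sdc3, a heparan sulfate proteoglycan that helps agouti-related peptide at the receptor, was the single gene of the 11 whose genotypes did not overlap. Over all genes 2.65% were apart on the lower side, as Sdc3 was. It read 10.99, 10.92, 11.06 and 11.08 against 11.23, 11.10, 11.09 and 11.14, and the difference was small at -0.13 (SE 0.064, adjusted p = 0.727).

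Enzymes that shape melanocortin peptides read 0.25 for Pam, which amidates peptides, and 0.16 for Prcp, which inactivates alpha-melanocyte-stimulating hormone. Pam read 0.68 in fed mice. Downstream of Mc4r, Bdnf read -0.17 and its receptor Ntrk2 0.077. The signalling genes Gnas and Mgrn1 read 0.049 and 0.030.

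**Figure D4:**
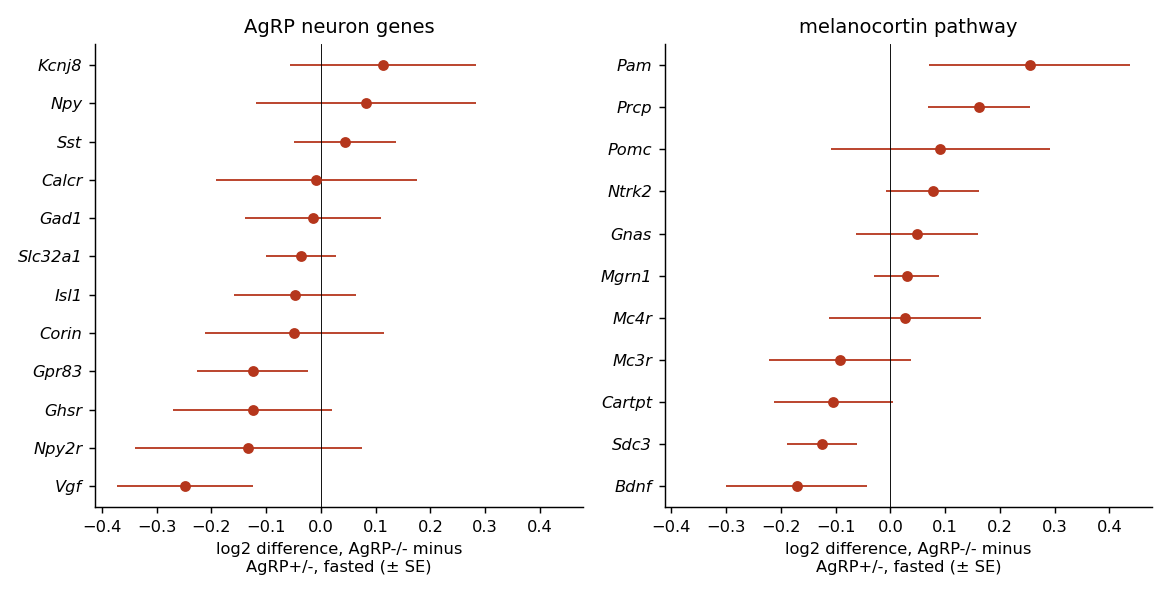
Log2 difference between fasted AgRP-/- and fasted AgRP+/- arrays for the 12 kept genes of AgRP neurons (left) and the 11 kept genes of the melanocortin pathway (right), with bars for the SE of the limma fit. The values lie between -0.25 and 0.25, and Npy and Pomc lie near 0 at 0.082 and 0.091.

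Among 24 kept genes of hypothalamic peptides 0 were called, 0 were apart on the higher side and 2 on the lower side, with a median of 0.022. Over all genes 0.0105% were called, 1.49% were apart on the higher side and 2.65% on the lower side. Ghrh, the peptide that releases growth hormone, read 8.29, 8.13, 8.37 and 8.22 in fasted AgRP-/- and 8.47, 8.52, 8.75 and 8.40 in fasted AgRP+/- arrays. These groups did not overlap, by a narrow margin, and the difference was -0.28 (SE 0.13, limma adjusted p = 0.712). In fed mice Ghrh read 0.13. Kiss1, which drives the neurons of the reproductive axis, read -0.44 (SE 0.22) with overlapping groups and its lowest arrays at 5.08 in AgRP-/- and 5.31 in AgRP+/-. Vip, a peptide of the suprachiasmatic nucleus, read 0.53 (SE 0.25), where the lowest AgRP+/- array was at 6.79 and the other arrays of both genotypes were at 7.65 to 8.47. Peptides of high abundance differed little, with Pmch at 0.079, Hcrt at 0.059, Avp at 0.14 and Oxt at -0.066.

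Receptors for feeding and endocrine signals were also without a call in 22 kept genes, where 0.0105% of all genes were called. Of the 22, 16 lay below 0, and the median was -0.10. Trhr, the receptor for thyrotropin-releasing hormone, read 6.76 to 7.08 in AgRP-/- and 7.06 to 7.41 in AgRP+/- fasted arrays, a difference of -0.30 (SE 0.11, limma adjusted p = 0.688). Among 14 kept genes of leptin and cytokine signalling 2 were apart on the lower side, against 2.65% of all genes. These were Ptpn11, the phosphatase SHP2, at -0.14, and Cish, an inhibitor of cytokine signals, at -0.27. The other probes of Ptpn11 read 0.066 and 0.080. Socs3, a target of leptin signalling, read 0.060 and Stat3 0.010.

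The 12 genes with the largest higher differences among those whose fasted groups did not overlap were led by Col6a2, Ppip5k2 and Gfap. Col6a2, a chain of collagen VI, read 5.89, 5.71, 5.67 and 5.01 in AgRP-/- and 4.97, 4.95, 4.65 and 4.62 in AgRP+/- fasted arrays. The difference was 0.77 (SE 0.22, limma adjusted p = 0.529), near the low end of the scale, and the gene passed the filter mainly in AgRP-/- arrays. Mmp14, a membrane-bound matrix metalloproteinase, read 0.59, and Cav1, the coat protein of caveolae in endothelium, read 0.55. Others were Ppip5k2 at 0.64, an inositol pyrophosphate kinase, Selenok at 0.61, a selenoprotein of the endoplasmic reticulum, and Idh2 at 0.54, an isocitrate dehydrogenase of mitochondria. Mro, Uaca, Tbc1d19, Gm5643 and Trmt6 lay between 0.50 and 0.62. The adjusted p of the 12 ran from 0.259 to 0.658, so none was called.

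Gfap, the intermediate filament of astrocytes, read 7.36, 6.67, 6.92 and 6.60 in fasted AgRP-/- arrays. It read 6.17, 6.17, 6.22 and 6.50 in fasted AgRP+/- arrays. The groups did not overlap and the difference was 0.62 (SE 0.15, limma adjusted p = 0.50). In fed mice it was 0.74, again without overlap, with AgRP-/- arrays at 6.52 to 6.84 and AgRP+/- arrays at 5.75 to 6.13. Vim, a filament of astrocytes, tanycytes and vessels, also had groups that did not overlap in both states, at 0.45 fasted and 0.47 fed. C4b, a complement gene expressed by glia, read 0.51 fasted with overlapping groups and 0.76 fed. The other astrocyte markers did not share this pattern: the 12 kept genes had a median of 0.019, with Aqp4, the water channel, at 0.18 and Aldh1l1, a folate enzyme, at -0.17. Other probes of Aldh1l1 read 0.038, 0.022 and -0.18, so its sign differs between probes.

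Of the 12 genes with the largest lower differences, 7 are immediate early genes described above, Fos, Egr4, Egr1, Fosb, Junb, Arc and Egr2. The immediate early list held 22 of the 9530 kept genes. This ranking uses the same values as the counts above, and Fosb and Egr2 passed the filter mainly in AgRP+/- arrays. Dnd1, an RNA-binding protein, read 5.68 to 6.17 against 6.27 to 6.72, a difference of -0.66 (SE 0.14, limma adjusted p = 0.259). Phex, an endopeptidase, read 4.57 to 4.74 against 5.12 to 5.41, at the low end of the scale. Dennd2a read -1.44 (SE 0.72), and this value rests on a single AgRP-/- array at 4.70, since the others read 7.27 to 8.27 against 8.36 to 8.59 in AgRP+/-. Fgf1, a fibroblast growth factor, read -0.55 by its brightest probe and 0.00068 by its other probe. Rrad, a small GTPase that inhibits calcium channels, read 6.50, 6.55, 6.83 and 6.69 against 7.04, 6.93, 7.82 and 7.52, a difference of -0.68 (SE 0.24, adjusted p = 0.658).

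Rrad also lies near Agrp on the chromosome. Among the 25 kept genes on each side of Agrp 0 of 50 were called, 6 were apart on the lower side and 0 on the higher side, against 2.65% and 1.49% of all genes. Of the 50, 35 lay below 0 and the median was -0.060, and in fed mice 0 were apart on either side. Tppp3, a tubulin polymerization protein, read 9.88, 9.77, 9.97 and 9.85 in AgRP-/- and 10.11, 10.25, 10.11 and 10.02 in AgRP+/- fasted arrays. The difference was small beside that of Rrad, at -0.26 (SE 0.078, limma adjusted p = 0.569), and read 0.028 in fed mice. The other genes apart on the lower side were Lrrc29 at -0.31, Pard6a at -0.16, Ranbp10 at -0.15 and Atp6v0d1 at -0.13. Other probes of Atp6v0d1 read -0.047, -0.14 and -0.31. Of the 12 genes nearest to Agrp, 6 on each side, Ripor1 had the widest difference. It read 7.72, 7.35, 7.92 and 7.95 in AgRP-/- and 7.84, 7.95, 8.38 and 8.15 in AgRP+/- fasted arrays, which overlapped, a difference of -0.35 (SE 0.14, limma adjusted p = 0.688). Lrrc36 read -0.18, Zdhhc1 -0.16, Ctcf -0.058 and Fhod1 0.11, and Acd, Tmem208, Carmil2 and Enkd1 lay between -0.0058 and 0.023.

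A single probe without a gene symbol, ILMN_2703427, gave the widest difference of all, with fasted AgRP-/- arrays at 4.50, 4.43, 4.62 and 4.44 and fasted AgRP+/- arrays at 11.24, 10.20, 10.01 and 10.00. Because the AgRP-/- values lie at the low end of the scale, the difference of -5.86 (SE 0.27, limma adjusted p = 7.14e-11) is a bound on its size, and in fed mice it was -3.85. The probe passed the filter in AgRP+/- arrays alone, and without a filter it was also called (limma adjusted p = 2.26e-11).

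Markers of some other cell types and regions also read higher in fasted AgRP-/- arrays. The 13 kept markers of mural and meningeal cells had a median of 0.64 against -0.012 over all genes, with 10 above 0. Of the 13, 0 were called and 0 were apart in either direction, against 1.49% higher and 2.65% lower over all genes. Igf2, a growth factor of the meninges, read 12.47, 12.69, 11.77 and 10.79 in fasted AgRP-/- and 11.62, 10.92, 9.69 and 10.38 in fasted AgRP+/- arrays. The groups overlapped, and the difference was 1.28 (SE 0.56, limma adjusted p = 0.694). Lum and Dcn, matrix proteoglycans of fibroblasts, read 0.85 and 0.86, and Vtn, a gene of pericytes, read 0.68. Their mean per array ran from 7.51 to 8.53 in fasted AgRP-/- and from 7.23 to 8.02 in fasted AgRP+/- arrays. The mural genes Rgs5 and Myh11 read -0.0032 and -0.055. Of the 17 markers 4 were not kept, Col1a1, Col1a2, Col3a1 and Tagln. The part of these cells in the values of Col6a2, Cav1, Mmp14 and Vim was not tested.

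Endothelial markers lay above 0 in 11 of 12 kept genes, with a median of 0.10. Of the 12, 0 were called and 1 was apart on the higher side, against 0.0105% and 1.49% of all genes. That gene was Itm2a, a membrane protein of brain endothelium, which read 10.08, 10.15, 9.75 and 9.92 in fasted AgRP-/- arrays. It read 9.40, 9.67, 9.43 and 9.54 in fasted AgRP+/- arrays. Its difference was 0.47 (SE 0.086, limma adjusted p = 0.137), the smallest p among genes that read higher, and it passed the threshold without AgRP-/- fasted replicate 3 (0.54, adjusted p = 0.0173). Slc38a5, an amino acid transporter of the same cells, read 7.63, 7.63, 7.84 and 7.39 against 6.75, 6.85, 7.53 and 6.68. The third AgRP+/- array overlapped the AgRP-/- arrays, and without that array the difference of 0.67 became 0.86 and passed the threshold (adjusted p = 0.0177). Mean levels of the 12 markers ran from 8.03 to 8.13 in AgRP-/- and from 7.81 to 7.98 in AgRP+/- fasted arrays.

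Transcripts from the list of midbrain dopamine neuron markers were present in these hypothalamic samples and varied between arrays. Of the 17 markers 13 were kept, and En1, Foxa2, Lmx1b and Pitx3 were not. Slc6a3, the dopamine transporter, read 10.27, 10.45, 9.81 and 10.65 in fasted AgRP-/- and 10.43, 9.82, 9.34 and 7.96 in fasted AgRP+/- arrays. The fourth AgRP+/- array was the lowest, and the difference was 0.91 (SE 0.53, limma adjusted p = 0.745), or 0.43 without that array and 1.25 without the first AgRP+/- array. Th, the first enzyme of dopamine synthesis, read 0.50. The 13 kept markers had a median of 0.22, with 9 above 0 and 0 called, and the median ran from 0.063 without the fourth to 0.33 without the first AgRP+/- array. The mean of Slc6a3, Chrna6 and Th ran from 8.50 to 9.06 in fasted AgRP-/- and from 7.17 to 8.81 in fasted AgRP+/- arrays (exact two-sided permutation p = 0.171). With this mean as a covariate the median of the immediate early genes was -0.25, and with the mean of the mural and meningeal markers it was -0.26, against -0.21 without a covariate.

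Of the genes that define the pituitary, most were not kept. Gh, the growth hormone gene, read 4.27 to 4.64 in fasted AgRP-/- and 4.41 to 5.05 in fasted AgRP+/- arrays, all below the median of the table, and Prl, the prolactin gene, read 4.31 to 4.78 in the same 8 arrays. Cga, the common chain of glycoprotein hormones, read 4.43, 7.17, 5.71 and 5.50 in AgRP-/- and 4.38 to 4.57 in AgRP+/- fasted arrays. Cga passed the filter mainly in AgRP-/- arrays. Of 10 pituitary markers with a probe 2 were kept. The difference in log2 intensity between the dimmest and the brightest kept probe of Actb, which can move with RNA quality, ran from -5.02 to -4.03 in fasted AgRP-/- and from -5.61 to -4.47 in fasted AgRP+/- arrays (exact two-sided permutation p = 0.400). Markers of the other cell types lay near the level of all genes, with medians of 0.038 for 12 genes of microglia, 0.032 for 11 of oligodendrocytes, 0.068 for 10 of tanycytes and ependyma and -0.029 for 7 of choroid plexus. Thalamic and cortical markers had medians of -0.12 and -0.11 over 8 genes each, and 5 blood cell genes had a median of 0.20. With single arrays left out, the thalamic median ran from -0.23 to 0.11, the latter without the third AgRP-/- array. The cortical median was -0.054 and the blood cell median 0.050 without the fourth AgRP+/- array.

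**Figure D5:**
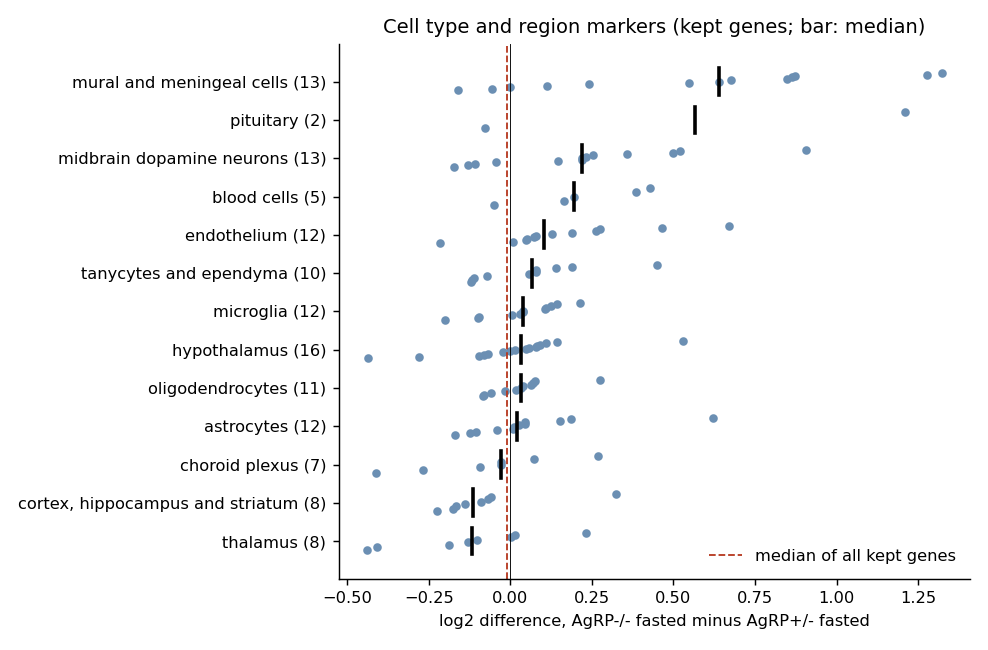
Log2 difference between fasted AgRP-/- and fasted AgRP+/- arrays for the kept marker genes of 13 cell types or regions, with 1 point per gene, the number of genes in brackets, a black bar for the median of each list and a dashed line for the median of all kept genes (-0.012). The mural and meningeal list has its median at 0.64, and the hypothalamic list at 0.032.

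Inflammatory, interferon and acute phase genes form further groups. Of 20 kept interferon response genes 0 were called and 2 were apart on the higher side, against 0.0105% and 1.49% of all genes. The median was 0.12, or 0.064 without the fourth AgRP+/- array and 0.022 without the second AgRP-/- array. Gbp2, a guanylate-binding protein induced by interferon, read 6.89 to 7.35 in AgRP-/- and 6.46 to 6.79 in AgRP+/- fasted arrays, a difference of 0.45 (SE 0.14, limma adjusted p = 0.569). Psmb9, a subunit of the immunoproteasome, read 0.33. Inflammatory and acute phase genes, 11 of them kept, had a median of 0.18, 9 above 0 and 0 apart in either direction, and the median was 0.094 without the second AgRP-/- array and 0.12 without the third AgRP+/- array. Within that list Lrg1, an acute phase glycoprotein of vessels, read 0.86, or 0.56 without the first AgRP-/- array. Hp, haptoglobin, read -0.85, with AgRP-/- arrays at 4.62 to 4.98, near the lower quartile of the scale, and AgRP+/- arrays at 5.56, 5.25, 6.77 and 4.94. It passed the filter in AgRP+/- arrays alone, and without the third of these its difference was -0.47.

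Across all 13662 kept probes the fasted and the fed genotype differences, which share no array, correlated with a Pearson r of 0.285 and a Spearman rho of 0.230. This is a description across probes, which are not independent replicates and come from arrays normalized together. Of 208 probes that were apart on the higher side in fasted mice, 147 (70.7%) lay above 0 in fed mice, against 49.8% of all probes. In fed mice 8 of the 208 were apart on the higher side and 2 on the lower side. Of all 13662 probes 150 and 162 were so in fed mice. Of 327 on the lower side, 228 (69.7%) lay below 0 in fed mice, against 50.1% of all probes. In fed mice 15 of the 327 were apart on the lower side and 2 on the higher side.

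By genes, 19 were apart in the same direction in both feeding states and 2 in opposite directions. Of all genes, 1.05% were apart on the higher and 1.25% on the lower side in fed mice. The genes apart on the higher side in both states were Gfap, Vim, Hspb8, a small heat shock protein, Dedd, 4933434E20Rik and Mmgt2. On the lower side there were 13, among them Arc, Fosb, Adar, an RNA-editing deaminase, Ass1, an enzyme of arginine synthesis, Mknk2, a kinase of translation factors, Elovl6, a fatty acid elongase, and Abcc8, the sulfonylurea receptor of ATP-sensitive potassium channels. Abcc8 read 5.64 to 6.19 in AgRP-/- and 6.25 to 6.30 in AgRP+/- fasted arrays, a difference of -0.30, and -0.23 in fed mice. Mob3a, with a fasted difference of -0.44 (SE 0.095, limma adjusted p = 0.259), had the smallest p of the 19.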

How the data were processed

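Total RNA of mouse hypothalamus was amplified to biotinylated cRNA and hybridised to Illumina bead arrays, per the labels' protocols. The deposited table holds log2 intensities, 1 column for each of the 16 arrays; limma is named in the submitters' processing notes, without role or version, and how background and normalization were handled is not given in the sources used here. Groups came from the sample titles. All 16 columns were used as deposited.

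Probes exceeding the table median, 5.12, in 4 or more arrays were kept. A model with 1 mean per group of 4 arrays was fitted with limma 3.58.1 in R 4.3.3 (empirical Bayes, intensity trend, 12 residual degrees of freedom), with Benjamini-Hochberg adjustment over 13662 probes and calls at 0.05. Contrasts were genotype in fasted mice, genotype in fed mice and their interaction. The model was tested on simulated data. Exact permutation tests were used for Egr1, the dopamine mean and the Actb probe difference, and the other p-values came from limma.

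The array's platform annotation, which can be old, gave 1 symbol for 23978 probes and none for 1719. The brightest kept probe stands for a gene. Named were the called probes, the 12 largest differences each way among genes whose groups did not overlap, Npy, Pomc and Cartpt, all kept genes of the AgRP neuron and melanocortin lists, the 3 smallest p of each other list, and the 6 genes nearest to Agrp on each side. Further members, Mob3a, Ranbp10, Socs3 and Stat3 among them, and genes apart in both feeding states were named after their values were seen. The 13 marker lists and 18 gene lists, and the comparison itself, were chosen with earlier results of these data known, so lists are described and not tested.

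Alternatives were no filter, a filter at the 75th percentile, quantile normalization, median centring, no trend, array weights, compared groups alone, a replicate block, covariates, and leaving out each array. The covariate for mural and meningeal transcripts and the omission of 2 fed arrays with pituitary transcripts were chosen after seeing the data. Promoter sequences are RefSeq's, GRCm38.p6.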

Additional observations from a re-analysis of the deposited data

Results flagged for a closer look

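Within each group of 4 fasted arrays, a highest or lowest value was marked when its gap to the next exceeded 0.829 of the group's range. Of 272 groups checked over 136 named items 18 were marked, where chance marks about 1 in 20. Below, each value is the log2 intensity of the marked array.

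In AgRP+/- replicate 1 Npy read 11.05, Gad1 12.08, Lrrc29 7.57 and ILMN_2703427 11.24, all high, so the reference mean of Npy leans on this array. In replicate 2 Neurod2 read 5.24, high, and Carmil2 6.04, low, and in replicate 3 Fgf1 read 9.55, high. In replicate 4 Gfap read 6.50, high, and Psmb9 5.56, Asns 10.98 and Lrrc36 6.07, low.

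In AgRP-/- replicate 1 Phex read 4.57 and Isl1 10.09, low, and Enkd1 5.74, high. In replicate 2 Fgf1 read 7.87 and Prcp 8.05, low. In replicate 4 Emcn read 8.01, high, and Acd 11.06, low. For Fgf1 the marked arrays of both genotypes widen the difference.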

How the results depend on the processing

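The 2 calls in fasted mice became 1, with Egr1 lost, without the intensity trend, with the dopamine covariate and with the mural and meningeal covariate. Egr1 then read -0.81, -0.68 and -0.75 (limma adjusted p = 0.132, 0.0931 and 0.0928), the last setting added after seeing the data. With single arrays left out the count ran from 1 to 3, Egr1 from -0.89 to -0.69 and its adjusted p from 0.00660 to 0.0783, and the probe without a symbol stayed between -5.98 and -5.57. The third call was Itm2a without AgRP-/- replicate 3 or Slc38a5 without AgRP+/- replicate 3. The count was 2 under the other 9 alternatives. Fed mice gave 1 call, or 2 without AgRP-/- fed replicate 1 (range 1 to 2), and the interaction 0, or 1 without AgRP+/- fed replicate 3 (range 0 to 1). The median of the immediate early genes lay between -0.26 and -0.13 over the alternatives, the smallest with the mean over a gene's probes, and between -0.25 and -0.19 with single arrays left out. Where a call was lost, the cause was not tested. Same-numbered arrays of the 2 genotypes did not all deviate together (correlations 0.089, -0.049, 0.250 and 0.236). The best partner had the same number for numbers 1, 3 and 4, and was number 4 for number 2. Whether the numbers pair the arrays is therefore not settled. With the replicate number as a block the count was 2 and Egr1 -0.81 (limma adjusted p = 0.00481). Without bead counts or detection p-values, genes near 4.49, such as Fosb, Phex and Col6a2, are limited by background.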

Other observations

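Metabolic and stress gene groups held 0 calls in fasted mice, where 0.0105% of all genes were called. Over 24 kept genes of fatty acid and ketone use the median was 0.075. In 2 of them, Crat, a carnitine acetyltransferase (-0.42), and Cpt1c, a brain carnitine palmitoyltransferase (-0.22), the AgRP-/- arrays all lay below the AgRP+/- arrays. This held for 2.65% of all genes. Plin2, a coat protein of lipid droplets, read 0.41 with overlapping groups. The median of 17 cholesterol synthesis genes was -0.057, with Lss, which closes the sterol ring system, at -0.36 and Sc5d, a later desaturase, at -0.32. Over 30 genes responsive to glucocorticoids the median was -0.013 and none of the groups was apart (0 on either side), with the clock gene Per1 at -0.25 by its brightest probe and -0.44 by its other probe. Genes of the integrated stress response and ER chaperones had a median of 0.050 over 25 genes.

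The circadian clock list had a median of -0.00595 over 18 genes, with Nr1d2, a nuclear receptor that represses clock genes, at 0.35 and Arntl, which codes for BMAL1, at 0.28. For 14 thyroid hormone genes it was -0.015, between -0.015 and 0.080 over the alternatives and between -0.051 and 0.012 with single arrays left out, so its sign is not settled. For targets of FoxO and insulin signalling it was 0.10 over 18, but -0.051 under the filter at the 75th percentile and -0.00162 with the mural and meningeal covariate. With single arrays left out it ran from 0.026 (AgRP+/- fasted replicate 3) to 0.13 (AgRP-/- fasted replicate 1). Of the 18 genes 1 was apart on the higher side, the binding protein gene Igfbp5 at 0.21, against 1.49% of all genes. Genes of GABA and glutamate neurons had a median of -0.029 over 16 genes. Of the 16, 1 was apart on the lower side, the vesicular glutamate transporter Slc17a6 at -0.091, against 2.65% of all genes. Potassium and calcium channel genes had a median of -0.075 over 22, or -0.0051 without AgRP-/- fasted replicate 3. The genes apart in opposite directions in the feeding states were Snrpa1, a spliceosome protein, at 0.17 fasted and -0.24 fed, and Rad9a, a DNA damage clamp subunit, at -0.36 fasted and 0.18 fed.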
